A study of Homo sapiens with 16 samples.

Results

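Interferon-stimulated genes are the genes that cells switch on when an interferon binds its receptor, and many of their products block the replication of viruses. The 51 genes described here were chosen by symbol from a list of well-known genes of this kind, and all 51 were found among the 61806 genes of the deposited table. They were followed in LX-2, a human hepatic stellate cell line that grows without limit; stellate cells lie beside the liver sinusoids and lay down matrix in fibrosis. Poly(A) RNA sequencing covered 16 libraries, 4 biological replicates in each of 4 groups, and the series asks about Fn14, the product of TNFRSF12A and the receptor for the cytokine TWEAK, and about a form of it said to signal with no ligand. WT is the unedited line given PBS, and TWEAK is the same line given 100 ng/mL recombinant human TWEAK for 2 h. Fn14alpha KO lacks the alpha isoform of Fn14 and Fn14 KO lacks total Fn14, both made with CRISPR/Cas9 and both given PBS. All cells were grown in an endothelial growth medium with little serum, for 24 h before TWEAK or PBS. Each knockout is a line of its own, and the sources used here do not say whether it is 1 clone or a pool, so the loss of Fn14 and other differences between lines cannot be told apart. The labels name no interferon treatment. How the replicates were kept apart is not described, and the p-values therefore reflect only the spread among these samples, which may be technical.

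Type I and type III interferons act through receptor pairs that carry the kinases JAK1 and TYK2. These kinases set off the assembly of a complex with STAT2 and IRF9, which binds interferon-stimulated response elements in promoters. Type II interferon acts through another receptor with JAK1 and JAK2, on promoters that carry the gamma-activated site. Many cells also keep a low level of these genes without added interferon, and IRF1, unphosphorylated STATs and small amounts of interferon beta are known to take part in that. In liver, stellate cells are known to express interferon receptors and to respond to interferons.

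Many of the promoters hold a match to the response element. RefSeq promoter sequences (GRCh38.p14, 250 bases before to 50 after the start of the gene) were found for 41 of the 51 genes, and 26 of these (63.4%) held the core of the element, which is GAAA, 2 bases of any kind and GAAA again, on either strand. Among all 27305 promoters of the same length, 996 (3.65%) held it, and among the promoters of genes tested here 2.83% did. The gamma-activated site, TTCNNNGAA on either strand, was in 12 of the 41 (29.3%) and in 7.88% of all promoters, and 4 of its 13 matches overlapped one of the 45 matches to the response element. The 150 bases before the RefSeq start are shown for 9 genes, 5′ to 3′ on the gene's own strand, with each core, read on either strand, in capitals. RefSeq starts differ from those of the deposited table for some genes. By the gene coordinates of that table, the OAS3 and ISG15 windows lie inside the gene and the HERC6 window spans its start. IFI44 (chr1:78649639-78649788, plus strand), OAS3 (chr12:112938324-112938473, plus strand) and DDX60 (chr4:168318753-168318902, minus strand) are shown because they had lower levels in both knockouts, ISG15 (chr1:1013347-1013496, plus strand) because only Fn14 KO was called lower, and BST2 (chr19:17405631-17405780, minus strand) because both knockouts were low and overlapped each other. IFIT5 (chr10:89414418-89414567, plus strand) and IFITM3 (chr11:320861-321010, minus strand) hold the element and were not called in any comparison. SP110 (chr2:230225637-230225786, minus strand) and HERC6 (chr4:88378702-88378851, plus strand) have no match in these 150 bases and were called all the same.
IFI44: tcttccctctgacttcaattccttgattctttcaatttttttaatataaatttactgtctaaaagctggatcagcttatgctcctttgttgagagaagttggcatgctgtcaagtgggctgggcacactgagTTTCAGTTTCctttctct
OAS3: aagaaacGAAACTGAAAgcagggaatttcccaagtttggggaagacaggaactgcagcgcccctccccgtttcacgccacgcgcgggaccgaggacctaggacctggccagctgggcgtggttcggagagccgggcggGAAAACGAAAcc
DDX60: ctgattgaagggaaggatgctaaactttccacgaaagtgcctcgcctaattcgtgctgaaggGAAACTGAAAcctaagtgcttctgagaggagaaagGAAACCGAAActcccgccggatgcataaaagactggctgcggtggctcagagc
ISG15: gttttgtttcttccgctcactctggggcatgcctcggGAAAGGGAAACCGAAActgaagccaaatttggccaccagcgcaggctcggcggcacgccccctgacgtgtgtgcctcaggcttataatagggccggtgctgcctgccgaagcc
BST2: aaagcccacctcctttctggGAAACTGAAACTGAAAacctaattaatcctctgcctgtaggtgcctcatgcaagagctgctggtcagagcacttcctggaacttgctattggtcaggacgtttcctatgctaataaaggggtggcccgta
IFIT5: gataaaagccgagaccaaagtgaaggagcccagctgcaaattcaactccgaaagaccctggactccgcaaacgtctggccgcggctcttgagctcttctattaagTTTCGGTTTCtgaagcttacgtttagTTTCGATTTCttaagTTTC
IFITM3: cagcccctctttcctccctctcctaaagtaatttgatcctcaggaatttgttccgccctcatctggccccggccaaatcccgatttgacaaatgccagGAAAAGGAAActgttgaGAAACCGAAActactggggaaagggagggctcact
SP110: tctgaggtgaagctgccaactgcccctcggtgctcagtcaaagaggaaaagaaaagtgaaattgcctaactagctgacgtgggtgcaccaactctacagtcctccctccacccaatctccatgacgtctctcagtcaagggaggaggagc
HERC6: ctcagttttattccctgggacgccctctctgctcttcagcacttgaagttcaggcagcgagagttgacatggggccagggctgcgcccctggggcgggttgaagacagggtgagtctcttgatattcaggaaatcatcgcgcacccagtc
In BST2 and ISG15 the capitals are overlapping matches, and the last 4 capitals of IFIT5 begin a match that runs past the start. A match is a run of letters and not evidence that a factor binds there.

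Total counts per library ran from 13335919 to 16888606. TNFRSF12A, the edited gene, stood at 128 ± 6.29 FPKM in WT and 130 ± 7.07 with TWEAK (mean ± SD, n = 4), and at 59.3 ± 6.43 in Fn14alpha KO and 33.6 ± 2.77 in Fn14 KO. FPKM is the fragment count per kilobase of exon, scaled to library size, so it allows levels of different genes to be compared. Of 12 stellate cell markers 8 had a mean of at least 1 FPKM, VIM and COL1A1 among them, while LRAT was at 0 to 0.005 FPKM as a group mean and DES at no more than 0.243. Their summed level was 759 to 802 FPKM in WT, 950 to 1024 with TWEAK, 613 to 630 in Fn14alpha KO and 1141 to 1223 in Fn14 KO. Single markers did not all follow the sum. With TWEAK, VIM was at 568 to 654 FPKM against 367 to 394 in WT, while COL1A1 was at 118 to 124 against 122 to 140. There 1 of the 9 tested markers was called higher and 1 lower. The share called was 22.2% with TWEAK, 77.8% in Fn14alpha KO and 88.9% in Fn14 KO, beside 6.87%, 42.2% and 52.9% of all genes. Of the 9 tested, 6 were called higher and 2 lower in Fn14 KO, the 2 being COL1A2 (-3.08 ± 0.15, edgeR adjusted p = 1.29e-14) and COL3A1 (-1.39 ± 0.07, edgeR adjusted p = 1.37e-13), and in Fn14alpha KO 6 were lower and TAGLN alone was higher (0.73 ± 0.09, edgeR adjusted p = 4.32e-07). Markers of plasmacytoid dendritic cells, which make much interferon, summed to no more than 0.20 FPKM in any library. The 7 leukocyte markers summed to 0.68 to 2.1 FPKM over all libraries, most of it CD14, at 0.57 to 1.67, and CD68, which was called higher in Fn14 KO (0.84 ± 0.31, edgeR adjusted p = 0.0251), while PTPRC was at no more than 0.01 as a group mean. The 5 endothelial markers summed to 1.55 to 2.08 FPKM in WT, 1.58 to 1.76 with TWEAK, 0.74 to 0.86 in Fn14alpha KO and 0.58 to 0.73 in Fn14 KO, with TEK lower in both knockouts (-2.26 ± 0.17 and -2.20 ± 0.17, edgeR adjusted p = 1.05e-10 and 7.75e-11) and CDH5 at no more than 0.01 as a group mean. The 6 hepatocyte markers, nearly all SERPINA1, summed to 2.25 to 2.67, 2.55 to 3.08, 1.02 to 1.38 and 0.26 to 0.72 FPKM in the same order, with ALB at no more than 0.03 as a group mean. The 4 cholangiocyte markers, most of it SOX9, summed to 5.19 to 6.28, 5.38 to 6.06, 5.57 to 7.2 and 11.3 to 12.8 FPKM, with EPCAM at no more than 0.0825 as a group mean. The part of these markers in the results was not tested. WT replicate 4 and Fn14 KO replicate 1 stood apart from the other 14 libraries, with a higher mean level of ribosomal protein genes (8.62 to 8.63 against 8.09 to 8.36 log2 CPM) and a lower share of mitochondrial mRNA (2.96% to 3.44% against 3.77% to 5.26%). Their part in the results was not tested beyond leaving both out, which is given beside the counts that follow. In bulk RNA, fewer cells that express a gene and less RNA per cell cannot be told apart.

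The interferon-stimulated genes were expressed without added interferon, at levels that spanned several orders of magnitude. In WT, 4 of the 51 had a mean below 0.1 FPKM, 12 lay between 0.1 and 1, 24 between 1 and 10, and 11 at 10 or more. The median of the 51 group means was 3.01 FPKM in WT, 3.00 with TWEAK, 1.81 in Fn14alpha KO and 1.20 in Fn14 KO. The highest was IFITM3, a membrane protein that blocks virus entry, at 77.6 ± 7.29 FPKM in WT. Summed over the 51 genes, the libraries ran from 308 to 331 FPKM in WT, 279 to 322 with TWEAK, 270 to 280 in Fn14alpha KO and 214 to 222 in Fn14 KO, so the Fn14 KO libraries were lower than all others. FPKM is scaled to the library total alone. On log2(FPKM + 0.1) the median of all genes tested was itself -0.12 in Fn14 KO minus WT and -0.14 between the knockouts. Too low to test were 4 genes, for OAS1, RSAD2, CMPK2 and IFI44L had 85, 4, 3 and 75 counts over all 16 libraries. RSAD2 and CMPK2, which rise strongly with interferon in many cell types, thus had next to no reads in every group.

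For the other 47, differences were tested with edgeR (quasi-likelihood F-test), and a gene is called where its adjusted p over all 16029 genes tested is below 0.05. With TWEAK, 3 were called higher than WT and 2 lower, or 10.6% of the 47 against 6.87% of all genes tested, of which 4.82% were higher and 2.05% lower. In Fn14alpha KO, 4 were called higher and 29 lower, 70.2% of the 47 beside 42.2% of all genes. The share called lower was 61.7%, against 22.2% of all genes, and the share called higher was 8.51%, against 20% of all genes. In Fn14 KO, 1 was called higher and 37 lower, 80.9% of the 47 beside 52.9% of all genes. Called lower there were 78.7%, with 26.3% of all genes, and called higher 2.13%, with 26.6% of all genes. The median log2 fold change of the 47 was -0.05 with TWEAK, -0.53 in Fn14alpha KO and -0.88 in Fn14 KO, beside -0.01, 0.01 and -0.01 over all genes. Of the 47, 37 met the filter on low counts in every group, with medians of -0.02, -0.40 and -0.65. The other 10 had medians of -0.15, -0.79 and -2.39. The 3 comparisons share the 4 WT libraries, so their values are given side by side and are not independent.

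The knockouts were also compared directly. In Fn14 KO minus Fn14alpha KO, 27 were called lower in Fn14 KO (57.4%, with 28.5% of all genes) and 6 higher (12.8%, with 30.7% of all genes). In either direction this was 70.2%, with 59.2% of all genes, with a median of -0.44 beside -0.000297 over all genes. The 6 were SP110, IFI16, TRIM22, GBP1, GBP3 and XAF1. Of the 27, 14 were lower by at least 1 on the log2 scale. Without WT replicate 4 and Fn14 KO replicate 1, 6, 34, 42 and 35 genes were called in the 4 comparisons, in the order TWEAK, Fn14alpha KO, Fn14 KO and knockout against knockout, of 49 then tested. These counts cover genes that passed the filter on low counts, and 10 of the 47 did not meet it in some group: it was met by 45 in WT, 46 with TWEAK, 44 in Fn14alpha KO and 37 in Fn14 KO. Entry through the group where a gene is high favours a difference, and the counts are descriptions for that reason. Among the 37 that met the filter in every group, 22 were called lower and 4 higher in Fn14alpha KO, beside 22.2% and 20% of all genes. In Fn14 KO 29 of the 37 were lower and 1 higher, beside 26.3% and 26.6% of all genes. Between the knockouts 19 were lower in Fn14 KO and 5 higher, beside 28.5% and 30.7%, with a median of -0.30.

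**Figure D1:**
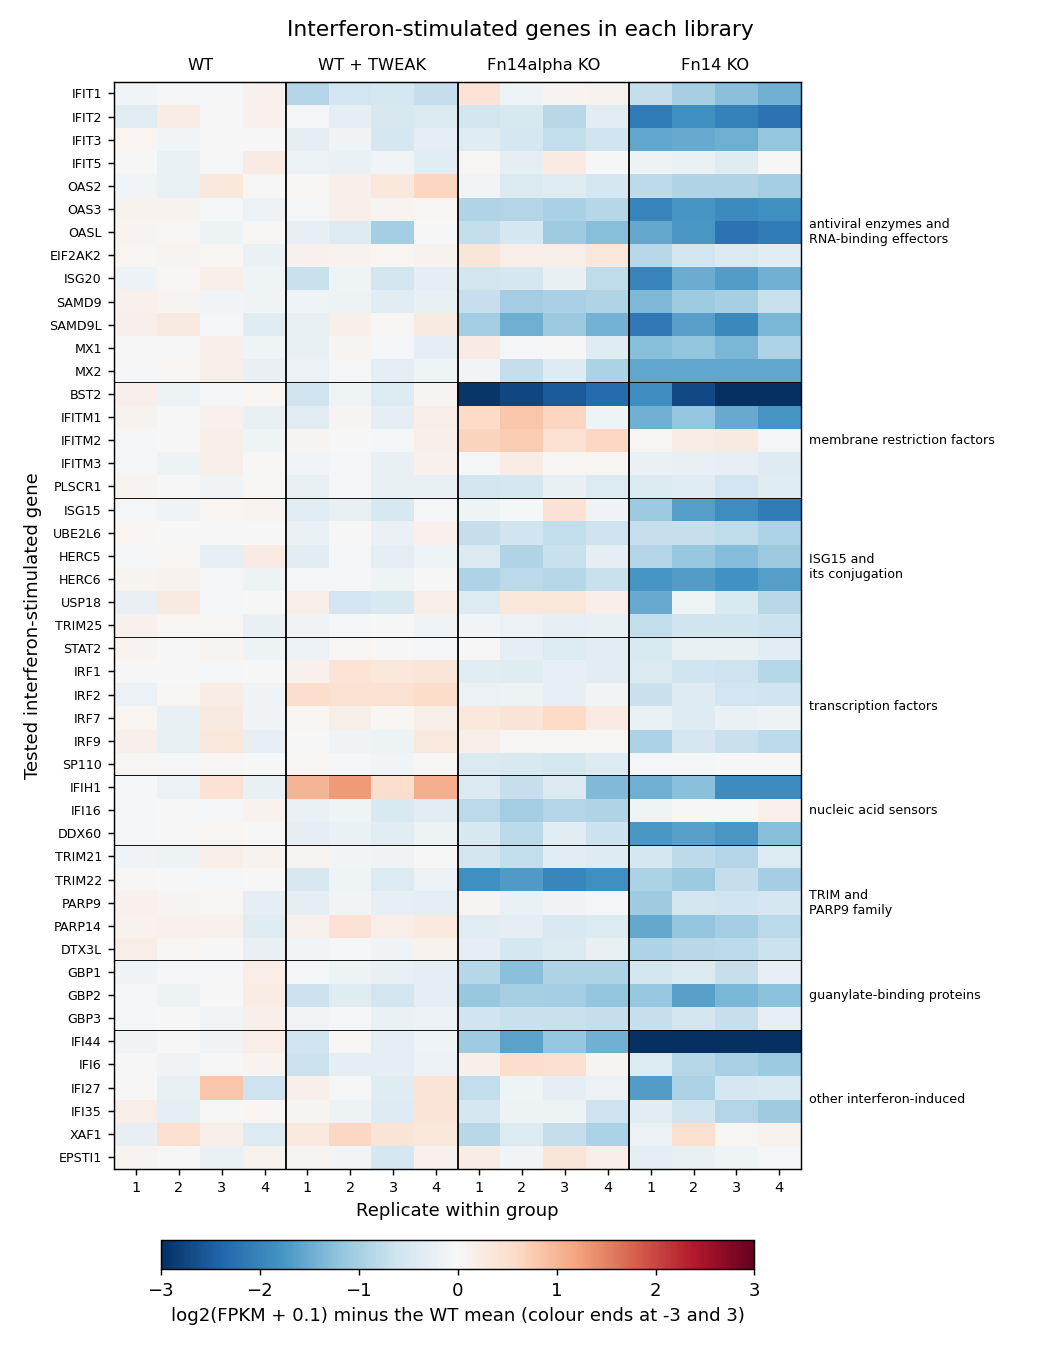
Level of each of the 47 tested interferon-stimulated genes (rows, by role) in each of the 16 libraries (columns, by group), as log2(FPKM + 0.1) minus the WT mean. The colour scale ends at -3 and 3. Fn14 KO columns are blue in most rows, Fn14alpha KO columns in fewer, and EIF2AK2, IFITM1 and IFITM2 are mostly red in Fn14alpha KO.

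The antiviral enzymes and RNA-binding effectors, 13 tested, were lower in Fn14 KO in nearly every case. In Fn14 KO 12 of 13 were called lower and none higher, in Fn14alpha KO 8 lower and 1 higher, and between the knockouts 10 were lower in Fn14 KO and none higher. Called lower were thus 92.3%, 61.5% and 76.9%, beside 26.3%, 22.2% and 28.5% of all genes. IFIT2, MX2, OAS2 and OASL did not meet the filter on low counts in Fn14 KO and entered through groups where they were higher. OAS3 (ENSG00000111331, chromosome 12, 112938051 to 112976460, plus strand), which makes the 2-5A that activates RNase L, stood at 2.81, 2.79, 2.52 and 2.29 FPKM in the 4 WT libraries and 2.48, 2.89, 2.76 and 2.71 with TWEAK. It was at 1.35, 1.36, 1.27 and 1.38 in Fn14alpha KO and 0.57, 0.69, 0.62 and 0.65 in Fn14 KO. The 3 levels did not overlap, with WT and TWEAK together highest, Fn14alpha KO between and Fn14 KO lowest. The log2 fold change was -0.99 ± 0.08 (SE) in Fn14alpha KO (edgeR adjusted p = 3.79e-10), -1.92 ± 0.08 in Fn14 KO (edgeR adjusted p = 2.85e-15) and -0.93 ± 0.09 between the knockouts (edgeR adjusted p = 1.98e-09).

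OASL and OAS2 were weaker in level and showed the same order of group means, while OAS1, too low to test, had 25 counts in WT, 33 with TWEAK, 23 in Fn14alpha KO and 4 in Fn14 KO. OASL, a family member without synthetase activity, stood at 0.505 ± 0.0443 FPKM in WT, 0.233 ± 0.0768 in Fn14alpha KO and 0.065 ± 0.03697 in Fn14 KO. It was called lower in both, by 2.24-fold (edgeR adjusted p = 0.001202) and 7.15-fold (edgeR adjusted p = 1.45e-07). OAS2 was called lower in Fn14 KO at -2.17 ± 0.34 (edgeR adjusted p = 9.70e-06), and its value in Fn14alpha KO, -0.64 ± 0.28, was not called (edgeR adjusted p = 0.0687).

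The IFIT genes encode tetratricopeptide proteins that bind foreign RNA, and 4 of them lie side by side on chromosome 10. IFIT3 (ENSG00000119917, chromosome 10, 89327307 to 89377473, plus strand) was at 2.63, 2.36, 2.5 and 2.52 FPKM in WT and 2.04, 2.3, 1.74 and 2.07 with TWEAK. In Fn14alpha KO the libraries read 1.92, 1.69, 1.46 and 1.63, and in Fn14 KO 0.79, 0.81, 0.84 and 1.06. All Fn14 KO libraries were below all Fn14alpha KO libraries, and these below all WT libraries. Its log2 fold change was -0.61 ± 0.11 in Fn14alpha KO (edgeR adjusted p = 1.09e-04) and -1.39 ± 0.12 in Fn14 KO (edgeR adjusted p = 9.15e-10), with -0.78 ± 0.13 between them (edgeR adjusted p = 1.05e-05). IFIT2 was lower in both, at -0.65 ± 0.18 and -2.47 ± 0.22 (edgeR adjusted p = 0.00448 and 1.38e-09).

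The neighbours IFIT1 and IFIT5 differed from that pattern. IFIT1 (ENSG00000185745, chromosome 10, 89392546 to 89406487, plus strand) stood at 1.11, 1.15, 1.14 and 1.3 FPKM in WT, 0.59, 0.76, 0.79 and 0.67 with TWEAK, 1.59, 1.07, 1.25 and 1.28 in Fn14alpha KO and 0.68, 0.54, 0.43 and 0.37 in Fn14 KO. The Fn14alpha KO libraries overlapped WT, and the Fn14 KO libraries were all below it. It was called lower in Fn14 KO (-1.10 ± 0.18, edgeR adjusted p = 1.14e-05) and against Fn14alpha KO (-1.21 ± 0.18, edgeR adjusted p = 2.32e-06). IFIT5, with 2 full matches to the response element in the sequence above, stood at 5.61 to 7.65 FPKM in WT and 5.03 to 6.39 in Fn14 KO and was not called in any comparison. IFIT1, IFIT2 and IFIT3 overlap LIPA on the opposite strand, and IFIT copies are alike in sequence. The sources used here give neither the strand setting of the count nor the handling of shared reads.

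MX1 and MX2, dynamin-like GTPases that trap viral particles, parted from each other in Fn14alpha KO. MX2 counts were 46, 58, 62 and 41 in WT, 46, 20, 32 and 16 in Fn14alpha KO and 3, 2, 3 and 3 in Fn14 KO, so that Fn14 KO held only a few reads per library. It was called lower in both knockouts, at -0.78 ± 0.23 (edgeR adjusted p = 0.00895) and -4.02 ± 0.36 (edgeR adjusted p = 1.26e-09). MX1, its neighbour on chromosome 21, was called lower in Fn14 KO (-1.93 ± 0.22, edgeR adjusted p = 1.02e-07), while its Fn14alpha KO level, 0.18 to 0.33 FPKM, spanned that of WT, 0.23 to 0.3. ISG20, an exonuclease that degrades RNA, was at 0.665 ± 0.0889 FPKM in WT and was lower by 1.55-fold in Fn14alpha KO and 4.17-fold in Fn14 KO (edgeR adjusted p = 0.00706 and 2.08e-08).

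SAMD9 and SAMD9L, neighbours on chromosome 7 that restrict poxviruses, were low in both knockouts. SAMD9 stood at 5.98, 5.8, 5.15 and 5.1 FPKM in WT and 5.05, 4.96, 4.38 and 4.69 with TWEAK, at 3.39, 2.63, 2.73 and 2.91 in Fn14alpha KO and at 2.1, 2.58, 2.71 and 3.4 in Fn14 KO. SAMD9L stood at 1.52, 1.65, 1.3 and 1.02 in WT, 1.15, 1.51, 1.39 and 1.66 with TWEAK, 0.6, 0.43, 0.58 and 0.44 in Fn14alpha KO and 0.23, 0.37, 0.28 and 0.46 in Fn14 KO. For both genes every knockout library lay below every WT and TWEAK library, and the knockouts overlapped each other. SAMD9 was lower, at -0.95 ± 0.11 and -0.91 ± 0.11 (edgeR adjusted p = 1.46e-07 and 1.45e-07), and SAMD9L likewise, at -1.45 ± 0.17 and -1.90 ± 0.18 (edgeR adjusted p = 2.96e-07 and 5.21e-09). Between the knockouts the differences were 0.04 ± 0.11 and -0.44 ± 0.21, and neither was called.

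EIF2AK2 (ENSG00000055332, chromosome 2, 37099210 to 37157522, minus strand), the kinase PKR that stops translation when it meets double-stranded RNA, was the effector called in opposite directions. Its libraries stood at 11.4, 11.7, 11.5 and 9.57 FPKM in WT, 12.1, 11.8, 11.5 and 11.9 with TWEAK, 14.3, 12.7, 12.4 and 13.8 in Fn14alpha KO and 6.12, 7.53, 8.09 and 8.85 in Fn14 KO. The Fn14alpha KO libraries were above those of WT and the Fn14 KO libraries below. Its log2 fold changes were 0.24 ± 0.08 (edgeR adjusted p = 0.0257), -0.41 ± 0.08 (edgeR adjusted p = 2.46e-04) and -0.65 ± 0.08 between the knockouts (edgeR adjusted p = 5.34e-07). Genes around it on chromosome 2 moved likewise, with a median of 0.14, -0.35 and -0.50 over its 100 neighbours. No comparison called it once each knockout's median against WT was removed (0.10, -0.07 and -0.16). The Fn14alpha KO call was also lost without WT replicate 4 (0.18, edgeR adjusted p = 0.0897) and without Fn14alpha KO replicate 1 or 4 (edgeR adjusted p = 0.0843 and 0.0672).

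**Figure D2:**
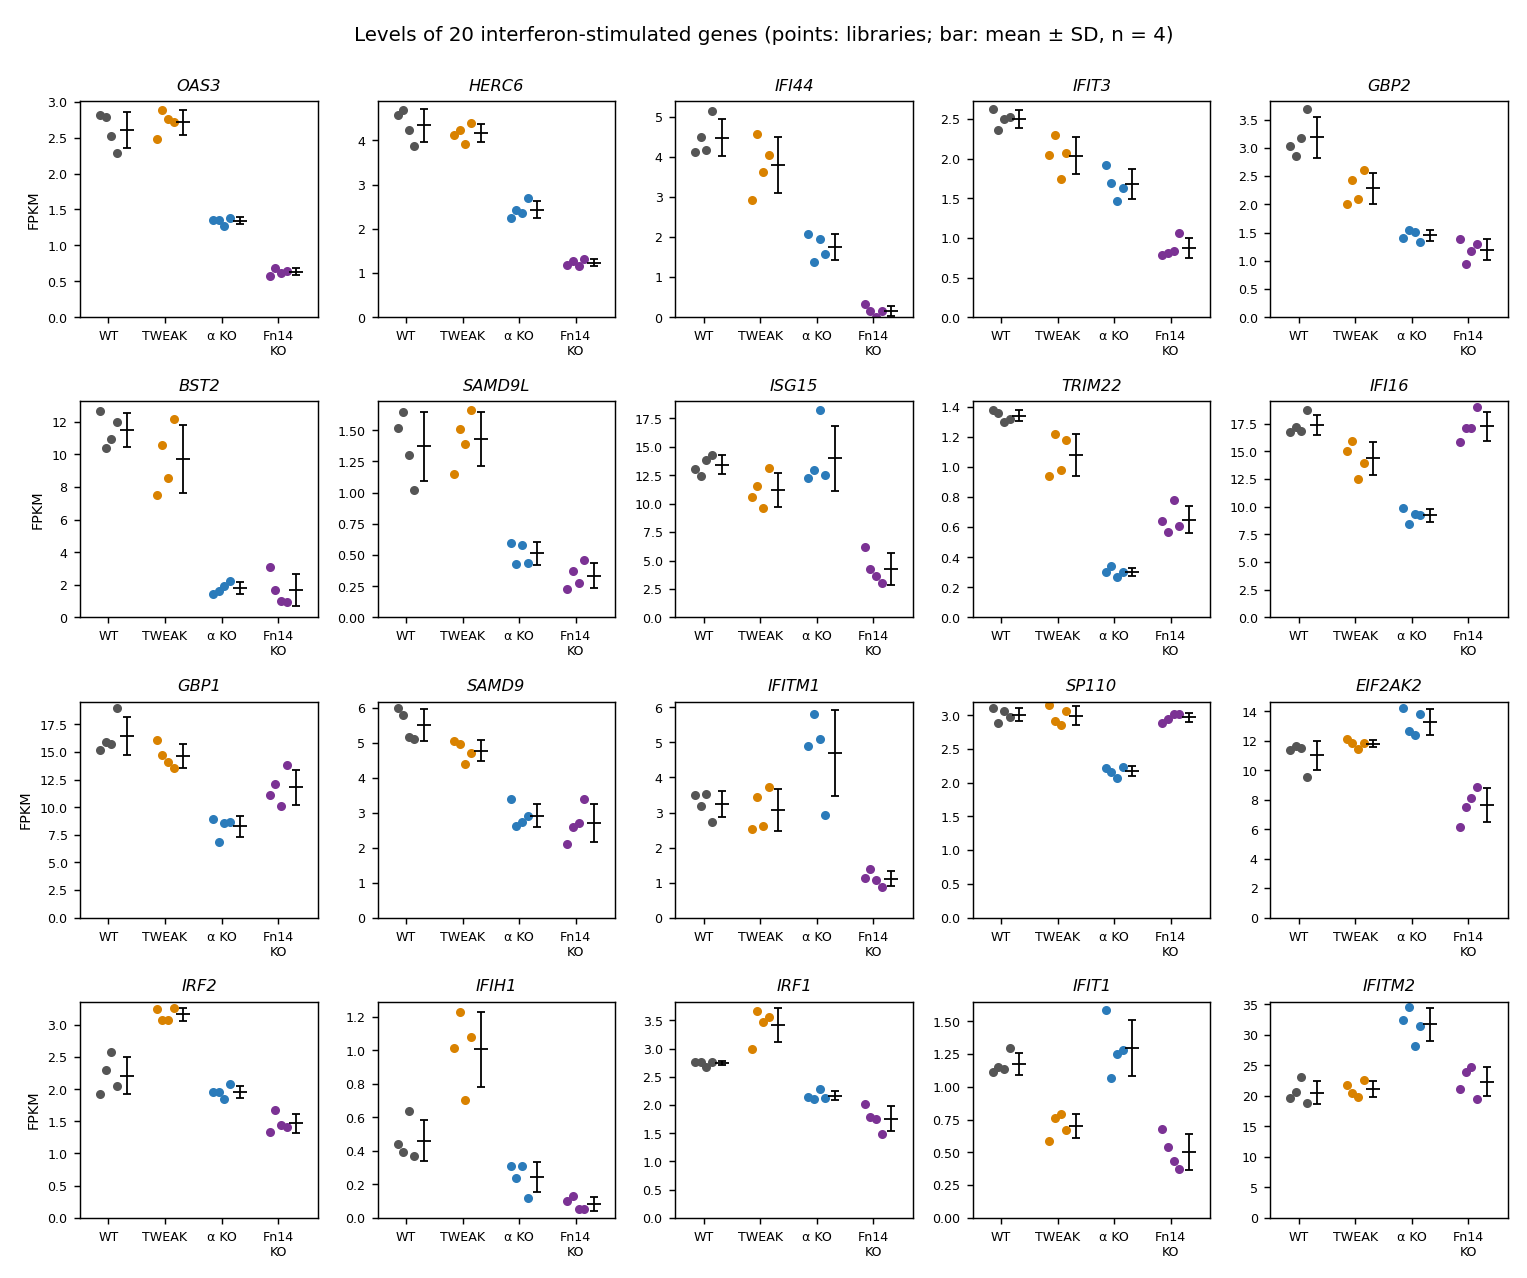
FPKM of 20 interferon-stimulated genes in each library (points), by group, with the mean and SD of 4 libraries beside them. Each vertical axis starts at 0, and α KO stands for Fn14alpha KO. OAS3, HERC6, IFI44 and IFIT3 step down from WT to Fn14alpha KO to Fn14 KO, whereas IFI16 and SP110 are low in Fn14alpha KO alone.

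ISG15 is a ubiquitin-like protein that is joined to newly made proteins by UBE2L6 and HERC5 and removed by USP18. Of the 6 tested genes of this group, 4 were called lower in Fn14alpha KO, 5 in Fn14 KO and 5 in Fn14 KO against Fn14alpha KO, and none higher. Called lower were thus 66.7%, 83.3% and 83.3%, beside 22.2%, 26.3% and 28.5% of all genes. USP18 did not meet the filter on low counts in Fn14 KO or with TWEAK. ISG15 (ENSG00000187608, chromosome 1, 1001138 to 1014540, plus strand) stood at 13.1, 12.4, 13.9 and 14.3 FPKM in WT and 10.6, 11.6, 9.61 and 13.2 with TWEAK, 12.3, 12.9, 18.2 and 12.5 in Fn14alpha KO and 6.18, 4.22, 3.6 and 3.04 in Fn14 KO. Only the Fn14 KO libraries lay apart, below all 12 others. ISG15 was 2.91-fold lower in Fn14 KO than in WT (-1.54 ± 0.17, edgeR adjusted p = 5.77e-08), and -1.57 ± 0.17 against Fn14alpha KO (edgeR adjusted p = 3.53e-08). Between Fn14alpha KO and WT the difference was 0.03 ± 0.15 and was not called.

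The conjugating enzymes did not follow ISG15 in Fn14alpha KO. HERC6 (ENSG00000138642, chromosome 4, 88378739 to 88443097, plus strand), a ligase relative of HERC5, was at 4.57, 4.69, 4.23 and 3.87 FPKM in WT, 4.12, 4.24, 3.92 and 4.39 with TWEAK, 2.24, 2.42, 2.36 and 2.7 in Fn14alpha KO and 1.19, 1.28, 1.15 and 1.31 in Fn14 KO. These levels stepped down without overlap, as for OAS3, with -0.87 ± 0.08 in Fn14alpha KO (edgeR adjusted p = 1.34e-08) and -1.69 ± 0.09 in Fn14 KO (edgeR adjusted p = 1.53e-13). HERC5, beside it on chromosome 4, was lower by 1.55-fold and 2.09-fold (edgeR adjusted p = 5.97e-04 and 1.01e-06). UBE2L6 was lower in both, at -0.70 ± 0.08 and -0.65 ± 0.08 (edgeR adjusted p = 3.70e-07 and 6.06e-07), from 17.3 ± 0.447 FPKM in WT. TRIM25, a ligase that acts on the RNA sensor RIG-I, was lower, at -0.22 ± 0.07 and -0.55 ± 0.07 (edgeR adjusted p = 0.0141 and 5.34e-07), and the Fn14alpha KO call was lost without WT replicate 1 (edgeR adjusted p = 0.0586) and by limma on log2(FPKM + 0.1). USP18 had 0.22 to 0.35 FPKM in WT and was called only between the knockouts (0.498 times the Fn14alpha KO level, edgeR adjusted p = 0.03302), a call lost in 6 of 18 alternatives. It was lost without Fn14 KO replicate 1 (-0.69, edgeR adjusted p = 0.113) or 4, without Fn14alpha KO replicate 2, 3 or 4 (edgeR adjusted p of 0.0616 to 0.0839 over these 4), and without the 2 libraries that stood apart (edgeR adjusted p = 0.109).

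Among the 5 membrane restriction factors, 2 were called lower and 2 higher in Fn14alpha KO, and 3 lower and 1 higher in Fn14 KO. In either direction this was 80% in each knockout, beside 42.2% and 52.9% of all genes. The shares called lower were 40% and 60%, beside 22.2% and 26.3% of all genes. BST2 (ENSG00000130303, chromosome 19, 17402939 to 17405630, minus strand), or tetherin, holds budding virions at the cell surface. It stood at 12.7, 10.4, 10.9 and 11.99 FPKM in WT and 7.51, 10.6, 8.54 and 12.2 with TWEAK, then at 1.42, 1.65, 1.9 and 2.25 in Fn14alpha KO and 3.1, 1.66, 1.03 and 0.97 in Fn14 KO. Every knockout library was far below every WT and TWEAK library, and the knockouts overlapped each other. The fall was 6.47-fold in Fn14alpha KO (edgeR adjusted p = 3.80e-09) and 6.25-fold in Fn14 KO (edgeR adjusted p = 2.49e-09), with a difference of 0.05 ± 0.30 between the knockouts (edgeR adjusted p = 0.896). PLSCR1, a phospholipid scramblase, was lower, at -0.46 ± 0.08 and -0.32 ± 0.08 (edgeR adjusted p = 2.85e-05 and 9.25e-04).

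The IFITM genes lie together on chromosome 11 and moved apart. IFITM1 was at 3.49, 3.2, 3.53 and 2.73 FPKM in WT, 2.54, 3.43, 2.61 and 3.74 with TWEAK, 4.9, 5.81, 5.1 and 2.94 in Fn14alpha KO and 1.12, 1.39, 1.06 and 0.87 in Fn14 KO. In Fn14alpha KO 3 of 4 libraries were above WT and the other within it, and all Fn14 KO libraries were below all others. The log2 fold changes were 0.50 ± 0.18 (edgeR adjusted p = 0.0249) and -1.42 ± 0.21 (edgeR adjusted p = 4.84e-06), with -1.92 ± 0.21 between the knockouts (edgeR adjusted p = 2.50e-08). The Fn14alpha KO call was lost without WT replicate 4 and without Fn14alpha KO replicate 1, 2 or 3 (edgeR adjusted p of 0.0568 to 0.112), and with the neighbours' median removed (0.40, edgeR adjusted p = 0.0867). IFITM2 rose in Fn14alpha KO from a WT range of 18.8 to 23.1 FPKM to one of 28.2 to 34.7 (0.59 ± 0.09, edgeR adjusted p = 7.07e-06). It was the 1 gene called higher in Fn14 KO (0.24 ± 0.09, edgeR adjusted p = 0.02805), and that call was lost in 9 of 18 alternatives. These were total counts in place of TMM (0.12, edgeR adjusted p = 0.259), both limma fits, the compared groups alone, and the fits without WT replicate 1, 2 or 4 or Fn14 KO replicate 2 or 3 (edgeR adjusted p of 0.0605 to 0.112). IFITM3 was not called in any comparison, at 76.1 to 89.8 FPKM in Fn14alpha KO and 59.4 to 67.3 in Fn14 KO. The 3 genes are close in sequence, so reads that fit more than 1 of them make their separate values uncertain.

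Of the 6 transcription factors tested, 3 were called lower and 1 higher in Fn14alpha KO, and 3 lower in Fn14 KO. In either direction this was 66.7% and 50%, beside 42.2% and 52.9% of all genes. The share called lower was 50% in each knockout, beside 22.2% and 26.3% of all genes. IRF1 (ENSG00000125347, chromosome 5, 132440440 to 132508719, minus strand), an activator that maintains many of these genes at rest, stood at 2.76, 2.77, 2.68 and 2.77 FPKM in WT, 2.99, 3.66, 3.48 and 3.56 with TWEAK, 2.15, 2.1, 2.28 and 2.13 in Fn14alpha KO and 2.01, 1.79, 1.75 and 1.48 in Fn14 KO. All TWEAK libraries were above WT and all knockout libraries below it. The log2 fold changes were 0.37 ± 0.08 with TWEAK (edgeR adjusted p = 0.00428), -0.37 ± 0.08 in Fn14alpha KO (edgeR adjusted p = 9.38e-04) and -0.53 ± 0.09 in Fn14 KO (edgeR adjusted p = 1.30e-05). IRF1-AS1 overlaps it on the opposite strand. IRF9, the DNA-binding part of the interferon complex, was lower in Fn14 KO (-0.67 ± 0.14, edgeR adjusted p = 2.79e-04) and at 1.72 to 1.91 FPKM in Fn14alpha KO against 1.41 to 2.11 in WT.

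IRF2, a relative that can oppose IRF1 at the same sites, was at 1.92, 2.3, 2.58 and 2.05 FPKM in WT, 3.24, 3.07, 3.08 and 3.26 with TWEAK, 1.95, 1.96, 1.85 and 2.08 in Fn14alpha KO and 1.34, 1.67, 1.45 and 1.41 in Fn14 KO. TWEAK libraries were above all others and Fn14 KO libraries below all others. It was 0.57 ± 0.09 with TWEAK (edgeR adjusted p = 1.71e-04) and -0.48 ± 0.10 in Fn14 KO (edgeR adjusted p = 2.99e-04). In Fn14 KO its neighbours on chromosome 4 had a median of -0.47, and with that removed IRF2 was at -0.01 (edgeR adjusted p = 0.953). IRF7, which drives interferon alpha genes, was called higher in Fn14alpha KO, at 4.05 to 5.23 FPKM against 2.92 to 4.14 in WT (0.36 ± 0.11, edgeR adjusted p = 0.0143). That call was lost without WT replicate 2 or Fn14alpha KO replicate 3 (edgeR adjusted p = 0.0632 and 0.0653) and with the neighbours' median removed (edgeR adjusted p = 0.0902). SP110, a nuclear body protein, stood at 3.11, 2.89, 3.07 and 2.97 FPKM in WT, 3.15, 2.91, 2.85 and 3.07 with TWEAK, 2.22, 2.16, 2.07 and 2.23 in Fn14alpha KO and 2.89, 2.94, 3.02 and 3.02 in Fn14 KO. Only Fn14alpha KO lay apart, at -0.50 ± 0.07 against WT (edgeR adjusted p = 2.10e-06) and with Fn14 KO higher by 0.60 ± 0.07 (edgeR adjusted p = 6.36e-08). Genes around SP110 had a median of 0.25 between the knockouts. With each knockout's median against WT removed, that difference was 0.32 and was still called (edgeR adjusted p = 5.07e-04).

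The 3 nucleic acid sensors were all called lower in Fn14alpha KO, and 2 of them in Fn14 KO. This was 100% and 66.7%, beside 22.2% and 26.3% of all genes called lower. IFIH1 and DDX60 did not meet the filter on low counts in Fn14 KO, nor did IFIH1 in Fn14alpha KO. Both entered through groups where they were higher. In Fn14 KO IFIH1 had 8, 11, 4 and 4 counts and DDX60 had 8, 11, 7 and 21. IFIH1, or MDA5, senses long double-stranded RNA. It stood at 0.44, 0.39, 0.64 and 0.37 FPKM in WT, 1.01, 1.23, 0.7 and 1.08 with TWEAK, 0.31, 0.24, 0.31 and 0.12 in Fn14alpha KO and 0.1, 0.13, 0.05 and 0.05 in Fn14 KO. TWEAK libraries were above all WT libraries, and both knockouts below them. The log2 fold changes were 1.18 ± 0.24 (edgeR adjusted p = 0.00174), -0.95 ± 0.29 (edgeR adjusted p = 0.00989) and -2.31 ± 0.35 (edgeR adjusted p = 4.47e-06), and without WT replicate 3 the Fn14alpha KO value was -0.74 and was not called (edgeR adjusted p = 0.0538). DDX60, a helicase that promotes RNA sensing, was at 0.335 ± 0.0129 FPKM in WT and lower by 1.73-fold in Fn14alpha KO and 6.99-fold in Fn14 KO (edgeR adjusted p = 6.58e-04 and 1.52e-10). The genes around DDX60 on chromosome 4 had a median of -0.46 in Fn14 KO.

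IFI16 (ENSG00000163565, chromosome 1, 158999968 to 159055155, plus strand), a sensor of DNA, went the other way in the knockout comparison. It was at 16.8, 17.2, 16.8 and 18.7 FPKM in WT, 15.1, 15.9, 12.5 and 13.9 with TWEAK, 9.88, 8.43, 9.35 and 9.25 in Fn14alpha KO and 15.8, 17.1, 17.1 and 18.99 in Fn14 KO. Fn14alpha KO was below all other libraries, and Fn14 KO spanned the range of WT. In Fn14alpha KO minus WT it was -0.95 ± 0.08 (edgeR adjusted p = 6.47e-10), and Fn14 KO was higher than Fn14alpha KO by 1.05 ± 0.08 (edgeR adjusted p = 3.42e-11). Neighbouring genes were themselves at 0.56 in Fn14 KO minus WT, 0.08 in Fn14alpha KO minus WT and 0.43 in Fn14 KO minus Fn14alpha KO. With each knockout's median against WT removed, IFI16 was still called between the knockouts, at 0.58.

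In the TRIM and PARP9 group, 4 of 5 were called lower in Fn14alpha KO and 5 of 5 in Fn14 KO. Of all genes, 22.2% and 26.3% were called lower there. TRIM22 (ENSG00000132274, chromosome 11, 5689610 to 5737089, plus strand), a ubiquitin ligase that restricts several viruses, stood at 1.38, 1.36, 1.3 and 1.32 FPKM in WT, 0.94, 1.22, 0.98 and 1.18 with TWEAK, 0.3, 0.34, 0.27 and 0.3 in Fn14alpha KO and 0.64, 0.57, 0.78 and 0.61 in Fn14 KO. Here Fn14alpha KO was the lowest group and Fn14 KO lay between it and WT, with no overlap. TRIM22 was 4.56-fold lower in Fn14alpha KO (edgeR adjusted p = 7.78e-13) and 1.91-fold lower in Fn14 KO (edgeR adjusted p = 1.10e-07), and 1.26 ± 0.13 on the log2 scale between the knockouts (edgeR adjusted p = 1.26e-08). TRIM21, an antibody receptor in the cytosol, was lower, at -0.53 ± 0.12 and -0.53 ± 0.12 (edgeR adjusted p = 6.14e-04 and 4.42e-04). TRIM22 overlaps TRIM5 on the opposite strand.

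PARP9, DTX3L and PARP14 form a cluster on chromosome 3 and encode an ADP-ribosyltransferase, its ligase partner and a relative. Their log2 fold changes in Fn14 KO were -0.58 ± 0.11, -0.70 ± 0.09 and -1.05 ± 0.12 (edgeR adjusted p = 7.75e-05, 3.86e-07 and 1.70e-07). Neighbouring genes moved the opposite way there, with a median of 0.32. In Fn14alpha KO, DTX3L and PARP14 were lower, at -0.40 ± 0.09 and -0.43 ± 0.12 (edgeR adjusted p = 6.20e-04 and 0.00526). PARP9 and DTX3L overlap each other on opposite strands.

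The guanylate-binding proteins, GTPases that attack the vacuoles of intracellular pathogens, were called lower in both knockouts, 3 of 3 each time. Among all genes, 22.2% were called lower in Fn14alpha KO and 26.3% in Fn14 KO. GBP1 (ENSG00000117228, chromosome 1, 89051882 to 89065360, minus strand) stood at 15.2, 15.9, 15.7 and 18.97 FPKM in WT, 16.1, 14.7, 14.1 and 13.6 with TWEAK, 8.96, 6.84, 8.59 and 8.63 in Fn14alpha KO and 11.1, 12.1, 10.2 and 13.9 in Fn14 KO. Fn14alpha KO was lowest and Fn14 KO between it and WT, without overlap. The log2 fold changes were -1.03 ± 0.10 (edgeR adjusted p = 7.39e-09), -0.36 ± 0.09 (edgeR adjusted p = 0.00221) and 0.66 ± 0.10 between the knockouts (edgeR adjusted p = 2.70e-06). GBP3 was lower, at -0.71 ± 0.09 and -0.42 ± 0.09 (edgeR adjusted p = 5.10e-07 and 2.24e-04). Its call between the knockouts, 0.28 ± 0.09 (edgeR adjusted p = 0.00779), was lost with total counts in place of TMM (0.14, edgeR adjusted p = 0.195), by both limma fits and without Fn14 KO replicate 4 (edgeR adjusted p = 0.0562).

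GBP2 stood at 3.03, 2.85, 3.18 and 3.69 FPKM in WT, 2.01, 2.43, 2.09 and 2.6 with TWEAK, 1.4, 1.55, 1.51 and 1.34 in Fn14alpha KO and 1.38, 0.95, 1.17 and 1.29 in Fn14 KO. All 3 other groups were below WT without overlap, and the knockouts were below TWEAK. GBP2 was -1.17 ± 0.11 in Fn14alpha KO and -1.30 ± 0.12 in Fn14 KO (edgeR adjusted p = 1.43e-08 and 1.58e-09), with a difference of -0.13 ± 0.12 between them that was not called (edgeR adjusted p = 0.399).

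Of the other interferon-induced genes, 6 tested, 2 were called lower in Fn14alpha KO and 4 in Fn14 KO, and none higher. This was 33.3% and 66.7%, beside 42.2% and 52.9% of all genes called in either direction and 22.2% and 26.3% called lower. IFI44 did not meet the filter on low counts in Fn14 KO, and IFI27 and XAF1 met it with TWEAK alone. IFI44 (ENSG00000137965, chromosome 1, 78649796 to 78664078, plus strand) had the largest fitted change of the 47 in Fn14 KO. Its libraries stood at 4.13, 4.5, 4.16 and 5.13 FPKM in WT, 2.92, 4.56, 3.62 and 4.05 with TWEAK, 2.08, 1.39, 1.95 and 1.58 in Fn14alpha KO and 0.33, 0.15, 0 and 0.15 in Fn14 KO, where they rested on 10, 5, 0 and 5 counts. The groups stepped down without overlap from WT and TWEAK to Fn14alpha KO and to Fn14 KO. The log2 fold changes were -1.38 ± 0.19 (edgeR adjusted p = 2.85e-06), -4.66 ± 0.29 (edgeR adjusted p = 2.30e-12) and -3.28 ± 0.34 between the knockouts (edgeR adjusted p = 1.14e-08). The neighbouring copy IFI44L was not tested, with 3 counts in all 4 Fn14 KO libraries together.

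IFI6, a mitochondrial and endoplasmic reticulum protein, was lower in Fn14 KO (-0.72 ± 0.16, edgeR adjusted p = 4.59e-04) and stood at 7.59 to 10.3 FPKM in Fn14alpha KO against 6.64 to 7.52 in WT, with no call. IFI35, which binds NMI, was lower in Fn14 KO at -0.61 ± 0.19 (edgeR adjusted p = 0.00845). IFI27 was called lower in Fn14 KO (-1.27 ± 0.45, edgeR adjusted p = 0.0207) at 0.15 to 0.58 FPKM in WT, and the call was lost without WT replicate 3 (-0.78, edgeR adjusted p = 0.161), without Fn14 KO replicate 1 or 2, in the compared groups alone and with the neighbours' median removed. XAF1, a partner of the apoptosis inhibitor XIAP, was lower in Fn14alpha KO (-2.07 ± 0.49, edgeR adjusted p = 0.00145) and higher by 2.36 ± 0.48 in Fn14 KO than in Fn14alpha KO (edgeR adjusted p = 1.78e-04). It stood at no more than 0.23 FPKM in any library, and its neighbours had a median of 0.45 between the knockouts. EPSTI1 was not called in any comparison.

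**Figure D3:**
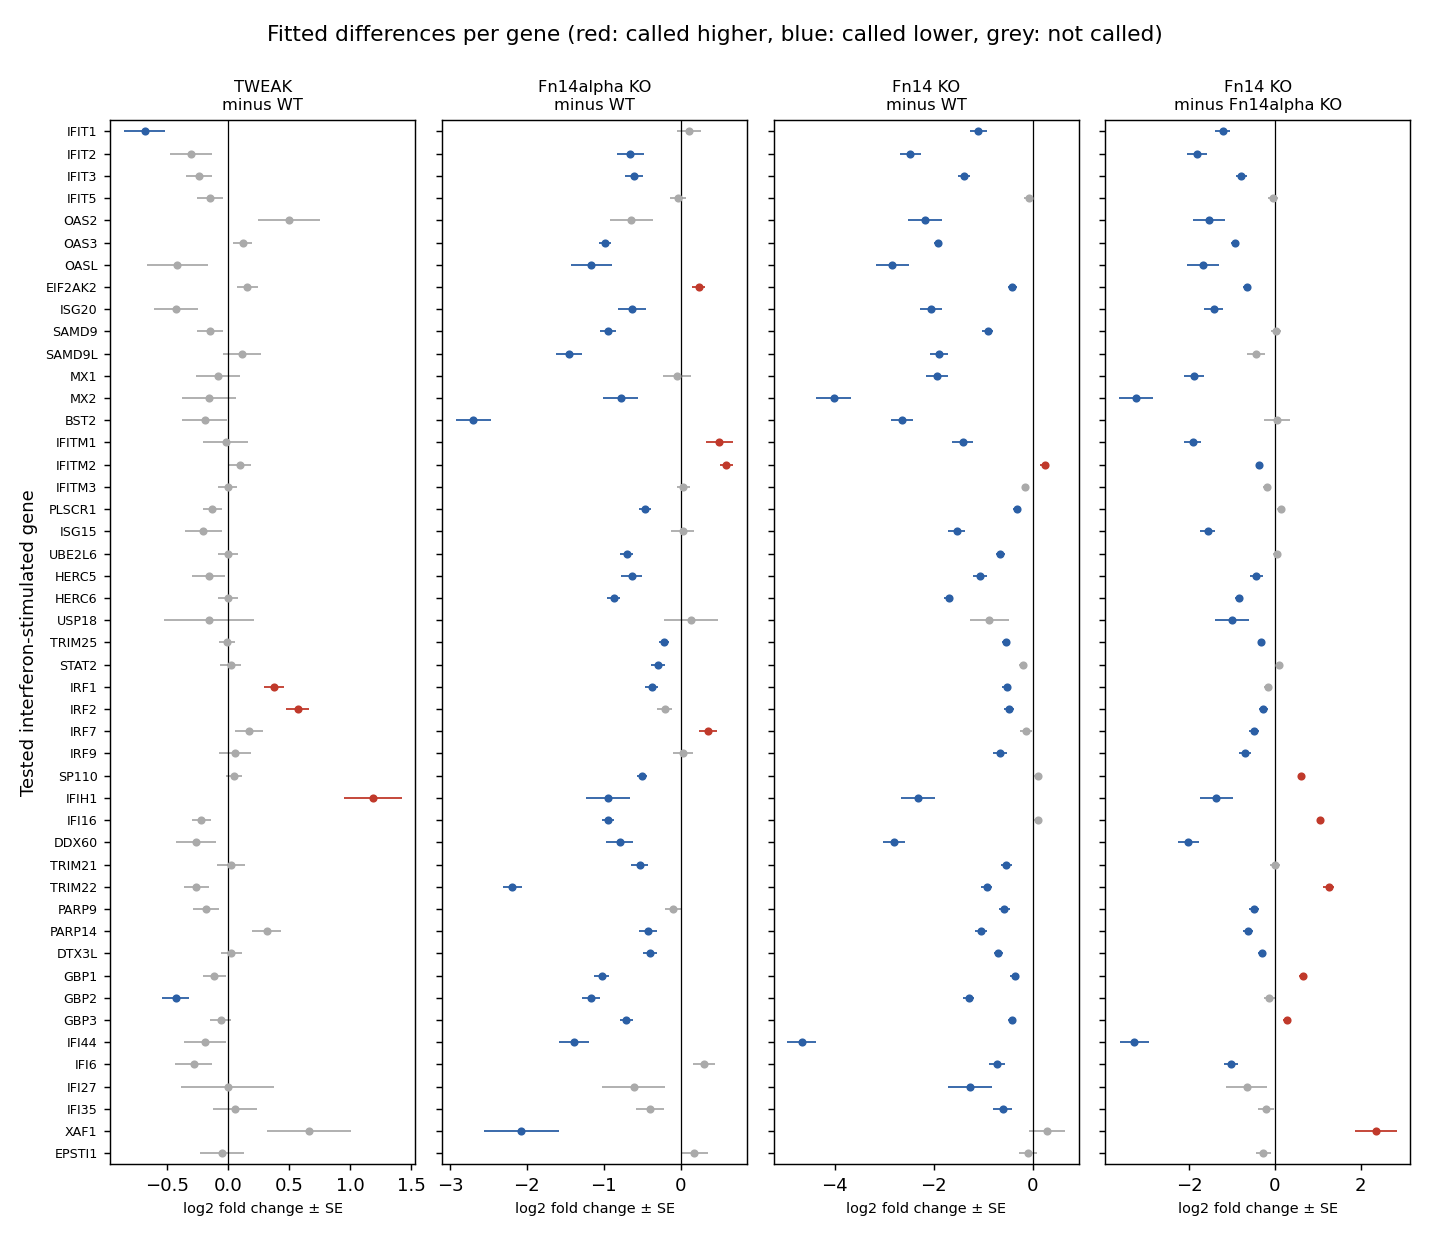
log2 fold change with its SE for each of the 47 tested interferon-stimulated genes in the 4 comparisons, red where called higher, blue where called lower and grey where not called. Each panel has its own horizontal scale. Of the 47, 5 genes are coloured with TWEAK, 33 in Fn14alpha KO, 38 in Fn14 KO and 33 between the knockouts.

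After 2 h of TWEAK most of the 47 were not called. The 5 called were IFIH1 (1.18 ± 0.24), IRF2 (0.57 ± 0.09) and IRF1 (0.37 ± 0.08), which rose, and IFIT1 (-0.68 ± 0.17, edgeR adjusted p = 0.0118) and GBP2 (-0.43 ± 0.11, edgeR adjusted p = 0.0157), which fell. All 4 TWEAK libraries of IFIT1 lay at 0.59 to 0.79 FPKM, below the WT range of 1.11 to 1.3. The GBP2 call was lost without WT replicate 4, TWEAK replicate 1 or TWEAK replicate 3 (edgeR adjusted p of 0.0676 to 0.0734). The IFIT1 call was lost without TWEAK replicate 1 (edgeR adjusted p = 0.0535), which leaves 3 called genes. The values of the 42 genes not called ran from -0.42 to 0.66, and 5 of them had an unadjusted edgeR p below 0.05.

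Whole stretches of genes along a chromosome moved together in the knockouts, and some interferon-stimulated genes lie within them. The median log2 fold change of the 617 well-measured genes on chromosome 12 was -0.47 in Fn14alpha KO, where 79.9% were called lower. OAS1, OAS2, OAS3, OASL and STAT2 lie on this chromosome. For OAS3 the 100 neighbouring genes had a median of -0.45 in Fn14alpha KO, and with it removed OAS3 was still called at -0.54 (edgeR adjusted p = 8.10e-06). OASL went from -1.16 to -0.76 (edgeR adjusted p = 0.0348). STAT2, a part of the interferon complex, stood at 4.11 to 4.91 FPKM in WT and 3.45 to 4.54 in Fn14alpha KO. It was called lower at -0.29 ± 0.09 (edgeR adjusted p = 0.008197), but its neighbours had a median of -0.46, and with that removed STAT2 was at 0.17 and was not called (edgeR adjusted p = 0.140).

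In Fn14 KO the same neighbours had medians near 0, -0.04 for OAS3 and -0.07 for OASL, while the genes were at -1.92 and -2.84. Over all tested interferon-stimulated genes, removal of the neighbours' median ended the calls of EIF2AK2, IRF7, IFITM1 and STAT2 in Fn14alpha KO. In Fn14 KO it ended those of EIF2AK2, IRF2 and IFI27, and between the knockouts those of EIF2AK2, IRF2 and IFITM2. For the knockouts against each other, the fit removed each knockout's median against WT, not the median of that comparison. Whether a stretch differs in copy number between the lines was not tested.

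**Figure D4:**
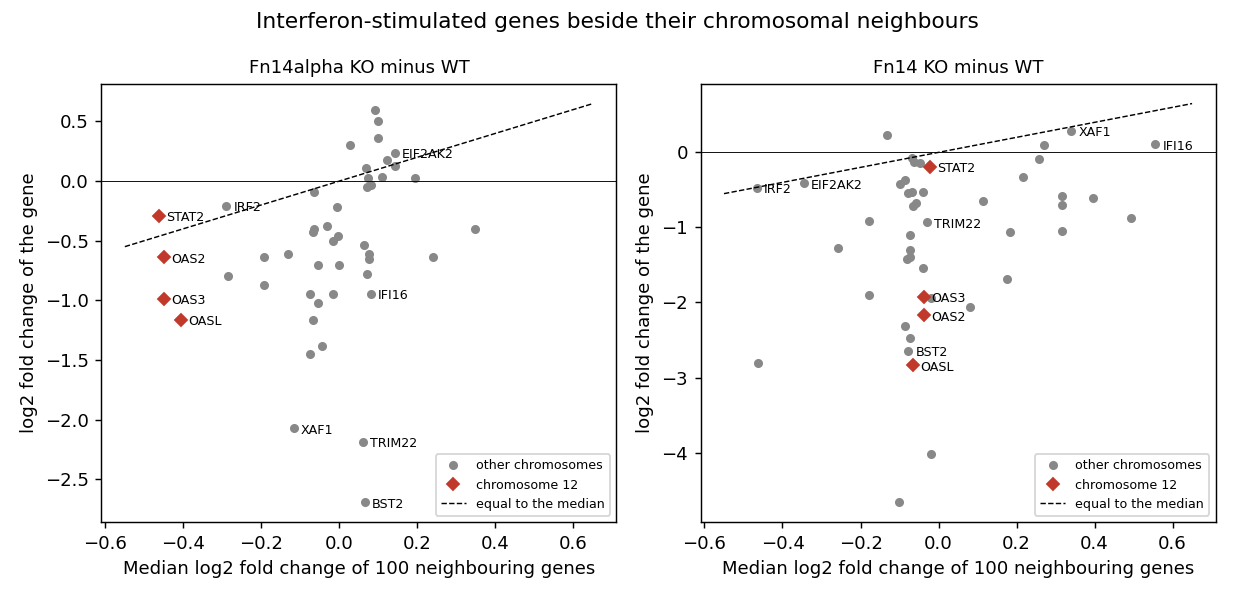
log2 fold change of each tested interferon-stimulated gene (vertical) against the median log2 fold change of its 100 neighbouring genes (horizontal), in Fn14alpha KO minus WT (left) and Fn14 KO minus WT (right). Red diamonds are the 4 tested genes of chromosome 12 and the dashed line marks equality. In Fn14alpha KO the chromosome 12 genes sit at neighbour medians of about -0.41 to -0.46 and STAT2 lies above the line, and in Fn14 KO most genes lie well below it.

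Genes with and without a promoter match to the response element were set side by side as a description. Among 25 tested genes with the core in the 300 bases, 22 were called lower in Fn14 KO, with a median log2 fold change of -1.06 and a range from -4.66 to -0.07. Among 12 without it, 8 were called lower, with a median of -0.56 and a range from -1.90 to 0.29. In Fn14alpha KO the medians were -0.53 with the element, where 15 of 25 were called lower, and -0.45 without, where 9 of 12 were. The ranges overlapped in every comparison. Of all genes tested, 26.3% were called lower in Fn14 KO and 22.2% in Fn14alpha KO. IFI44, IFIH1, DDX60 and IFI27, with the element, did not meet the filter on low counts in Fn14 KO, and without the element XAF1 alone did not. The part of these genes in the difference between the medians was not tested.

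The genes above and around these in the pathway were described from lists of ligands, receptors and kinases, sensors, negative regulators and further interferon-stimulated genes. Of 21 interferon genes in the table, 1 was testable. That was IFNE, an epithelial type I interferon, which was at 1.09, 0.52, 0.64 and 0.34 FPKM in WT and 0.09, 0.08, 0.19 and 0.17 in Fn14 KO and was called lower there (-2.11 ± 0.42, edgeR adjusted p = 1.66e-04). IFNB1, the main interferon of stromal cells, had 6 counts over all 16 libraries, 4 of them in TWEAK libraries, and IFNG and IFNA2 had none. Transcripts of the main interferons were thus at or near 0 counts in every group.

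Of 11 receptors, JAK kinases and STATs, 4 were called higher and 1 lower with TWEAK, 4 and 2 in Fn14alpha KO, and 3 and 5 in Fn14 KO. These were 45.5%, 54.5% and 72.7% of the list, beside 6.87%, 42.2% and 52.9% of all genes. IFNGR2, a chain of the interferon gamma receptor, stood at 21.5, 22.9, 19.4 and 21.4 FPKM in WT and 30.7, 34.7, 32.9 and 34.7 with TWEAK, without overlap (0.70 ± 0.07, edgeR adjusted p = 5.56e-08). IFNAR1, a chain of the type I receptor, was 0.28 ± 0.06 with TWEAK and -0.44 ± 0.06 in Fn14 KO (edgeR adjusted p = 0.00349 and 2.46e-06). IFNGR1, the other gamma chain, was higher in Fn14 KO by 0.55 ± 0.08 (edgeR adjusted p = 1.36e-06). IFNLR1, the type III chain, was called in opposite directions in the knockouts, 0.78 ± 0.12 in Fn14alpha KO and -0.59 ± 0.13 in Fn14 KO (edgeR adjusted p = 7.79e-06 and 4.92e-04).

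Of 15 tested sensors, adaptors and kinases, 2 were called higher with TWEAK and none lower, 3 higher and 6 lower in Fn14alpha KO, and 2 higher and 8 lower in Fn14 KO. In the knockouts this was 60% and 66.7% of the list, beside 42.2% and 52.9% of all genes, and with TWEAK 2 of 15, beside 6.87%. STING1, the adaptor of cytosolic DNA sensing, was at 8.48, 8.29, 8.73 and 7.69 FPKM in WT, 6.29, 6.75, 6.6 and 6.2 in Fn14alpha KO and 2.25, 2.08, 2.16 and 1.77 in Fn14 KO. CGAS, the enzyme that makes its ligand, was at 6.06, 6.07, 6.85 and 7.11, 4.71, 4.38, 4.3 and 5.06 and 2, 1.85, 1.36 and 2.39 in the same groups. Both stepped down without overlap. Fn14 KO was lower than WT by 3.71-fold for STING1 (edgeR adjusted p = 1.05e-14) and 3.15-fold for CGAS (edgeR adjusted p = 7.49e-11). IRF5, a factor downstream of toll-like receptors, was higher in Fn14alpha KO (1.55 ± 0.16, edgeR adjusted p = 3.55e-08) and lower in Fn14 KO (-1.43 ± 0.21, edgeR adjusted p = 4.84e-06). With TWEAK, TICAM1, the adaptor of TLR3, and TRAF3 rose by 0.61 ± 0.09 and 0.30 ± 0.08 (edgeR adjusted p = 7.18e-05 and 0.0144).

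Negative regulators, 12 tested, were called higher in 3 cases with TWEAK (25%, with 6.87% of all genes called), and in both knockouts 5 were called, 2 higher and 3 lower in Fn14alpha KO and 3 higher and 2 lower in Fn14 KO. The knockout share, 41.7%, did not exceed the 42.2% and 52.9% of all genes called. SOCS1, an inhibitor of JAK kinases, stood at 5.41, 5.76, 5.55 and 5.99 FPKM in WT, 7.58, 10.3, 8.96 and 9.44 with TWEAK, 3.33, 2.2, 2.92 and 2.59 in Fn14alpha KO and 2.51, 2.15, 2.3 and 1.82 in Fn14 KO. TWEAK libraries were above WT and knockout libraries below, without overlap. The log2 fold changes were 0.73 ± 0.11, -1.07 ± 0.13 and -1.26 ± 0.13 (edgeR adjusted p = 9.84e-05, 4.23e-07 and 2.78e-08). SOCS3, which acts on gp130 receptors, rose with TWEAK by 0.57 ± 0.09 (edgeR adjusted p = 8.54e-05).

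A further 35 tested interferon-stimulated genes that were not among the 51 were called lower in 14 cases and higher in 5 in Fn14alpha KO, and lower in 18 and higher in 6 in Fn14 KO. The shares called were 54.3% and 68.6%, beside 42.2% and 52.9% of all genes. Some genes, ADAR and SAMHD1 among them, stand in this list and in one of the others. The median log2 fold change of the 35 was -0.17 and -0.31, smaller in size than that of the 47. It was also smaller in size than the -0.40 and -0.65 of the 37 that met the filter on low counts in every group. Between the knockouts 11 of the 35 were lower in Fn14 KO and 8 higher, 54.3% beside 59.2% of all genes, with a median of -0.0045, where that of the 47 was -0.44. The median of the 37 was -0.30 there. SHFL, an inhibitor of frameshifting, was at 2.13, 2.2, 2.42 and 1.86 FPKM in WT, 1.16, 1.34, 1.19 and 1.23 in Fn14alpha KO and 0.28, 0.32, 0.16 and 0.26 in Fn14 KO, a step without overlap, and 7.64-fold lower in Fn14 KO (edgeR adjusted p = 4.63e-13). DDX60L, beside DDX60, was -1.11 ± 0.12 and -1.89 ± 0.13 (edgeR adjusted p = 1.00e-07 and 2.60e-11). With TWEAK 8 of the 35 were called higher and none lower (22.9%, with 6.87% of all genes called). GBP4 had 13, 13, 15 and 7 counts in WT and 41, 74, 42 and 61 with TWEAK, 4.998-fold higher by the fit (edgeR adjusted p = 1.19e-06). SLFN11, which blocks stressed replication forks, rose from a WT range of 8.97 to 10.1 FPKM to one of 14.3 to 14.98 (edgeR adjusted p = 2.23e-08), and APOL6 by 0.63 ± 0.08 (edgeR adjusted p = 3.44e-06).

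**Figure D5:**
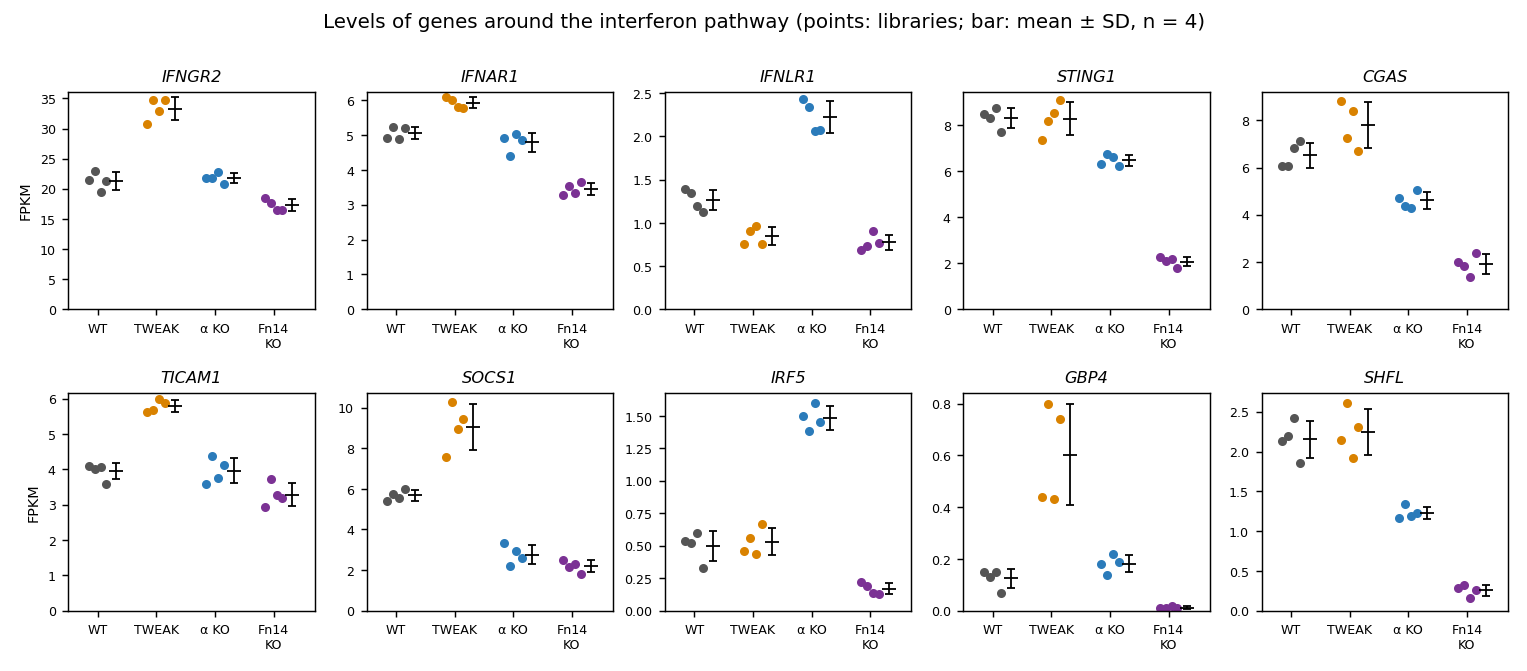
FPKM of 10 genes around the interferon pathway in each library (points), by group, with the mean and SD of 4 libraries beside them. Each vertical axis starts at 0, and α KO stands for Fn14alpha KO. STING1 and CGAS step down to Fn14 KO, while SOCS1 is above WT with TWEAK and below it in both knockouts, and SHFL steps down from WT to Fn14alpha KO to Fn14 KO.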

How the data were processed

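Poly(A) RNA of 16 LX-2 libraries was sequenced, 4 per group. The builds GRCh38.p13 and hg38 and the tools HISAT2 2.0.1, HTSeq 0.6.1, DESeq2, cutadapt 1.9.1 and FastQC 0.10.1 are named, without roles, per the submitters' processing notes. The deposited table gives a raw read count and an FPKM value per gene and library. The authors' FPKM values equal the count per exonic kilobase, scaled to the library total, within 0.005, per the file headers and the values. The sources used here give no strand setting or annotation release. No replicate pair agreed within sampling noise (chi-square per degree of freedom of 2.30 to 39.0 over 24 pairs, genes with at least 100 counts).

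Counts were tested with edgeR 4.0.16 (R 4.3.3) by its quasi-likelihood test, two-sided, with robust estimation, TMM scaling, filterByExpr by group, and 1 mean per group over all 16 libraries. P-values were adjusted by Benjamini-Hochberg over 16029 genes. The standard error is the log2 fold change divided by the square root of F. Fold values come from this fit. Alternatives were DESeq2 1.42.0, limma 3.58.1 on log2(FPKM + 0.1) and log2(FPKM + 1), and total counts or RLE scaling. Others were no filter, the compared groups alone, a replicate block and libraries left out. The last removed the median of 100 neighbouring genes (50 either side, mean of at least 2 log2 CPM) as an offset. That offset was each group's median against WT, also in the comparison between the knockouts. The fit was tested on simulated data for TWEAK minus WT, with 100 genes changed 2-fold and 100 changed 1.5-fold. It recovered 85% and 62% of these and made 10 false calls over 16029 genes. Promoters came from a RefSeq table (GRCh38.p14). Python 3.11.15, pandas 2.3.3, numpy 2.4.6 and matplotlib 3.10.9 were used.

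Values in every library are given for genes that, in at least 1 comparison, were called, averaged 1 FPKM or more in either group and were among the 8 with the smallest adjusted p. Other genes of the 51 are given by role, and pathway genes that were called by up to 3 per list and comparison, with TNFRSF12A; 1 other gene is not reported here. The 51 genes, the lists and the tests were chosen with earlier results of these data known.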

Additional observations from a re-analysis of the deposited data

Results flagged for a closer look

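A library was flagged where its gap to the nearest of the other 3 in its group was, as a share of the group's range, above Dixon's 95% critical value for 4 samples, which chance gives in about 1 of 20 groups. Of 130 groups checked, for interferon-stimulated genes that averaged 1 FPKM or more, 7 were flagged. In WT replicate 4, one of the libraries that stood apart, PARP14 was at 3.28 FPKM against 4.57 to 4.64 in the other 3, and EIF2AK2 at 9.57 against 11.4 to 11.7. ISG15 was at 18.2 FPKM in Fn14alpha KO replicate 3 and at 12.3 to 12.9 in the others. IRF9 was at 1.91 FPKM in Fn14alpha KO replicate 1 against 1.72 to 1.75. PLSCR1 was at 13.2 FPKM in TWEAK replicate 2 against 11.8 to 11.9. UBE2L6 was at 18.0 FPKM in WT replicate 1 against 17.1 to 17.2, and IRF1 at 2.68 in WT replicate 3 against 2.76 to 2.77.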

How the results depend on the processing

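The number of the 47 genes called was 5 with TWEAK, 33 in Fn14alpha KO, 38 in Fn14 KO and 33 between the knockouts. With 1 library left out at a time it ran from 3 to 5, 31 to 34, 37 to 39 and 32 to 35. The low value of 3 came without TWEAK replicate 1, where GBP2 and IFIT1 were not called. Over the other 10 alternatives it ran from 5 to 6, 30 to 34, 36 to 42 and 31 to 36. In all alternatives run, 3 of 5, 27 of 33, 34 of 38 and 27 of 33 calls were kept. STAT2 in Fn14alpha KO was the 1 called value that changed sign, to 0.17 with the neighbours' median removed. Total counts in place of TMM moved the median of all genes to -0.12 in Fn14 KO minus WT and to -0.15 between the knockouts. Replicate numbers did not pair the samples: same-numbered libraries correlated from -0.52 to 0.29 over 24 pairs, and 3 of 24 correlated best with their own number. With the replicate block 5, 33, 38 and 33 genes were called. Genes with few counts, such as OAS2, XAF1, USP18 and IFI27, have SEs of 0.25 to 0.49 on the log2 scale.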
